A study of Mus musculus with 17 samples.

Results

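Extracellular nucleotides and adenosine act on cells through 3 families of receptors, and 10 genes of this system were followed here in RNA-Seq libraries of peritoneal macrophages (PMs). The genes were given as a list of symbols and matched by exact symbol, and all 10 were among the 21683 rows of the table. They encode the ATP-gated channels P2rx4 and P2rx7, the nucleotide receptors P2ry2, P2ry6 and P2ry14, the adenosine receptors Adora2a and Adora2b, and the enzymes Entpd1, Nt5e and Ada. RNA-Seq was performed on 17 libraries in 3 groups. All mice were of the C57BL/6 strain with floxed alleles of IKKβ, the kinase that activates the canonical NF-κB pathway, and were 8 weeks old. Littermates that kept the floxed alleles intact gave PMs treated with PBS (F/F PBS, n = 6 libraries) or with 100 nM recombinant HIV protein Tat (F/F Tat, n = 6). Mice that in addition carried a heterozygous LysM-Cre knock-in, which deletes IKKβ in myeloid cells, gave PMs treated with 100 nM Tat (ΔMye Tat, n = 5). PMs were elicited with 1 mL of 3% thioglycollate, collected 3 days later per the labels (4 days per the methods), left to attach for 4 h and treated for 12 h. Tat was the first-exon form made in Escherichia coli, and per the methods its endotoxin was removed.

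Cells release ATP, UTP and other nucleotides when they are stressed, activated or dying. P2X receptors open as ion channels on binding ATP, P2Y receptors couple nucleotides and nucleotide sugars to G proteins, and adenosine receptors raise or lower cyclic AMP (cAMP). On the cell surface ATP is cut down to AMP by ENTPD enzymes and to adenosine by the ecto-nucleotidase encoded by Nt5e, and adenosine deaminase then turns adenosine into inosine. In macrophages, ATP acting on P2rx7 is known as a trigger of inflammasome activation, and adenosine acting on Adora2a and Adora2b is known to dampen inflammatory cytokine production.

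Values are TPM, a level per transcript length and per library total, so levels of different genes can be compared within a library. The read depth behind each value is unknown, since TPM do not keep it. The listed TPM summed to between 889318 and 903576 in each of the 17 libraries. A gene was tested if 5 or more libraries reached 1 TPM, which 10451 genes did. The test was limma on log2(TPM + 0.1), and every log2 fold change is on that scale. Values written as n-fold are ratios of mean TPM. A call required a fold change over 3 together with an adjusted p under 0.01, adjusted by Benjamini-Hochberg over all tested genes. The median log2 fold change of all tested genes was -0.65 for Tat against PBS in F/F PMs, and 0.22 when ΔMye Tat was compared with F/F Tat. Fold changes are therefore also given after median-ratio scaling of the libraries (scaled values), which brought these medians to -0.03 and 0.01. The labels do not say that libraries of a group came from separate animals, though the paper's heatmap legend calls each column a biological replicate of mouse. The p-values measure only the spread between these libraries. Ikbkb, which encodes IKKβ, ranged from 12.8 to 19.9 TPM in ΔMye Tat, under the 21.6 to 25.4 TPM of F/F Tat, 70.7% of the F/F Tat level by the means. IKKβ-deleted PMs given PBS were not analysed here, so the ΔMye Tat values can hold differences from the floxed controls that were there before Tat.

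The 8 macrophage markers examined all had a mean of at least 1 TPM in each group, but their levels differed between the groups. Their sum, most of it Lyz2, was 25796 to 26807 TPM in F/F PBS, 10309.8 to 10890.01 TPM in F/F Tat and 8019 to 8344 TPM in ΔMye Tat. With Tat in F/F PMs, 5 were lower with no overlap, among them Csf1r (mean 381 against 64.0 TPM), Lyz2 (22382 against 6993 TPM) and Cd68 (2596 against 1744 TPM), and 3 were higher with no overlap, among them Cd14 (203 against 842 TPM) and Fcgr1 (113 against 300.1 TPM). Adgre1, which encodes F4/80, ranged from 428 to 551 TPM over the 17 libraries. In ΔMye Tat against F/F Tat, Lyz2, the lysozyme gene at the Cre locus, had a lower mean (4333 against 6993 TPM), as did Fcgr1 (164 against 300.1 TPM). The means of the other markers, Csf1r (104 against 64.0 TPM), Cd68 (1886 against 1744 TPM), Adgre1, Itgam, Mertk and Cd14, were higher in ΔMye Tat. The part of these marker differences in the results with Tat was not tested. The summed level of the 7 T cell markers was at most 14.2 TPM, that of the 6 B cell markers at most 27.7 TPM and that of the 5 NK cell markers at most 4.78 TPM. In bulk libraries, fewer cells of a type and less RNA per cell cannot be told apart.

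The ATP-gated and nucleotide receptor genes lie partly in pairs in the mouse genome (GRCm38, GENCODE M21). P2rx7 (chromosome 5, 122643911 to 122691432, plus strand) ends 16111 bases before P2rx4 (122707544 to 122729738, plus strand). P2ry6 (chromosome 7, 100937630 to 100974649, minus strand) lies 21918 bases from P2ry2 (100996568 to 101012866, minus strand). P2ry14 (chromosome 3, 59113855 to 59153618, minus strand) lies within Med12l on the opposite strand, with 0 bases of exon in common. Adora2a is on chromosome 10 (75316877 to 75334784, plus strand) and Adora2b on chromosome 11 (62248984 to 62266453, plus strand). Entpd1 is on chromosome 19 (40612366 to 40741602, plus strand), Nt5e on chromosome 9 (88327197 to 88372092, plus strand) and Ada on chromosome 2 (163726584 to 163750239, minus strand). Of the 31-base sequences of each gene's transcripts, the share that also occurs in another gene was 4.43% for P2rx4, 1.94% for P2rx7 and under 1% for the other 8 genes.

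Promoter sequence is shown for the receptor genes with the largest rises that had a usable window and for the enzyme gene that fell most, 250 bases upstream of an annotated start, from RefSeq (GRCm38.p6). The windows shown hold no annotated exon and are chr11:62248734-62248983 (plus strand) for Adora2b, chr3:59131329-59131578 (minus strand) for P2ry14 and chr19:40659520-40659769 (plus strand) for Entpd1, which for P2ry14 and Entpd1 is window 2 of several annotated starts. Capitals mark a match to a searched motif.
Adora2b: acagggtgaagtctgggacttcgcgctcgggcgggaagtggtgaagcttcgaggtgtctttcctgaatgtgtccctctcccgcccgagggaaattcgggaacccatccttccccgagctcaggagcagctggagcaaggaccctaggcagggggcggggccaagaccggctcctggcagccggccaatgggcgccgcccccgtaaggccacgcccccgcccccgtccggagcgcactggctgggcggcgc
P2ry14: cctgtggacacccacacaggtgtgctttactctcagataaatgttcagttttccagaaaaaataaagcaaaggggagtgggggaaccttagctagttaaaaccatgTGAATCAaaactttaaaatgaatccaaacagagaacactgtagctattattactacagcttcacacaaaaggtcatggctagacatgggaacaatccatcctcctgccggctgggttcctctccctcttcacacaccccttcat
Entpd1: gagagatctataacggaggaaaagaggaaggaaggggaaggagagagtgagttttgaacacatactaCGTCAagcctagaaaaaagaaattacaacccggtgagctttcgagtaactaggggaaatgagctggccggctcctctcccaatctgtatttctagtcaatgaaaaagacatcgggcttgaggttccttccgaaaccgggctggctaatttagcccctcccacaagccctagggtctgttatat
The motifs searched on both strands were AP-1 (TGANTCA), the CRE (TGACGTCA) and the CRE half-site (TGACG), which the CRE contains, the ISRE core (GAAANNGAAA) and the kappaB motif by its name. The Adora2b window held no match. The P2ry14 window held 1 AP-1 match, found by the pattern on both strands, at -144 to -138 from the start, and the Entpd1 window held 1 CRE half-site on the minus strand at -183 to -179. Of 32851 mouse promoter windows of the same length, 6.75% held an AP-1 match, 17.8% a CRE half-site, 1.55% a CRE, 2.98% an ISRE core and 7.25% a kappaB match. Over all 14 windows of the members, Ada held a kappaB match at -137 to -128, both Entpd1 windows held a CRE half-site and 2 of the 4 P2ry14 windows an AP-1 match, P2rx4 held 2 CRE half-sites and 1 of the 2 P2rx7 windows held an AP-1 match, while Nt5e and P2ry2 held none. The table has no entry for Adora2a and P2ry6.

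With Tat, F/F PMs held more mRNA of both adenosine receptors, P2ry14 and P2ry2, and less of P2rx7, P2ry6 and Entpd1. Of the 9 members tested, 3 were called higher with Tat, namely Adora2b, Adora2a and P2ry14, beside 5.21% of all tested genes called higher. Called lower were Entpd1 and Ada, beside 19.4% of all tested genes, and neither passed the fold threshold after median-ratio scaling, where 8.51% of genes were called higher, the same 3 receptors among them, and 9.76% lower. By adjusted p alone, 4 members rose and 5 fell, beside 17% and 67.6% of all tested genes, and after scaling 4 rose, 4 fell and P2rx4 did neither, beside 37.1% and 38.1%. F/F Tat and F/F PBS did not overlap for any tested member, 4 being higher (15.3% of all tested genes) and 5 lower (62.4%). The members counted as lower include Ada, which passed the filter through the F/F PBS libraries alone.

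**Figure D1:**
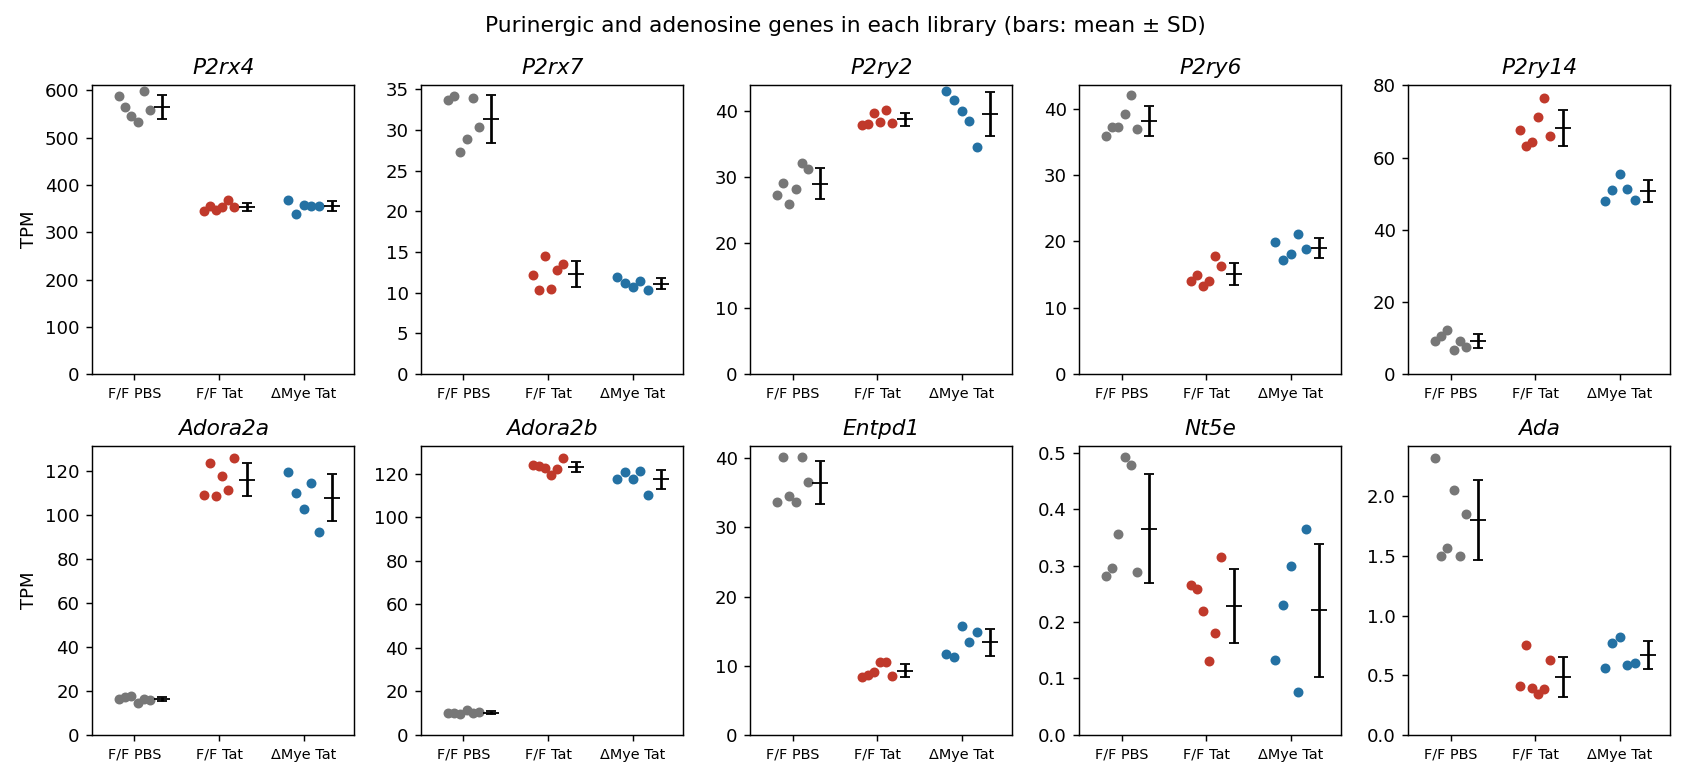
TPM (vertical axes, each from 0) of the 10 genes in every library of F/F PBS (grey, n = 6), F/F Tat (red, n = 6) and ΔMye Tat (blue, n = 5), with the mean and SD as bars. Adora2a, Adora2b and P2ry14 stand far above F/F PBS in both Tat groups, Entpd1 stands far below it, and Nt5e stays under 0.5 TPM in every library.

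P2rx4, an ATP-gated cation channel that is abundant in macrophages, had the highest level of the 10 genes in every group. It was 588, 565, 546, 533, 598 and 558 TPM in F/F PBS, above 97.8% of tested genes by its mean, and 345, 354, 346, 352, 369 and 353 TPM in F/F Tat. The groups did not overlap, and the mean fell from 565 ± 24.9 to 353 ± 8.51 TPM (SD, n = 6 each). The log2 fold change was -0.67 (SE 0.03, adjusted p = 4.42e-14, limma). That is close to the median of all tested genes, and after median-ratio scaling the log2 fold change was -0.04 (adjusted p = 0.252, limma).

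P2rx7, the channel through which high ATP activates the inflammasome, was 33.6, 34.2, 27.3, 28.9, 33.9 and 30.4 TPM in F/F PBS. With Tat it was 12.2, 10.4, 14.5, 10.5, 12.7 and 13.5 TPM. Every F/F Tat library was below every F/F PBS library, and the mean fell from 31.4 ± 2.95 to 12.3 ± 1.64 TPM (SD, n = 6 each). This was a log2 fold change of -1.35 (SE 0.08, adjusted p = 6.88e-12, limma), with a scaled value of -0.72 (adjusted p = 2.94e-08, limma). Of the summed P2rx4 and P2rx7 level, P2rx4 made up 94.7% ± 0.32 in F/F PBS and 96.6% ± 0.454 in F/F Tat (SD, n = 6 each), a difference of 1.89 percentage points (p = 0.00216 in a two-sided exact permutation test, the smallest these groups allow, and 0.00278 after Benjamini-Hochberg adjustment over the 9 share comparisons). Such shares within a library do not depend on the scaling.

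The 3 nucleotide receptors with G protein coupling went in different directions. P2ry2, a receptor for ATP and UTP, was 27.2, 29.1, 25.9, 28.2, 32.2 and 31.3 TPM in F/F PBS and 37.9, 38.01, 39.7, 38.3, 40.3 and 38.3 TPM in F/F Tat. The groups did not overlap. The mean rose from 29.0 ± 2.40 to 38.8 ± 0.984 TPM (SD, n = 6 each), a log2 fold change of 0.42 (SE 0.06, adjusted p = 9.76e-07, limma), or 1.05 after scaling (adjusted p = 4.04e-14, limma), which is below the fold threshold on either scale.

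P2ry6, a receptor for UDP, was 35.9, 37.3, 37.3, 39.1, 42.1 and 36.9 TPM in F/F PBS and 14.04, 14.9, 13.3, 13.99, 17.7 and 16.3 TPM in F/F Tat. Every Tat library lay below every PBS library. The mean fell from 38.1 ± 2.22 to 15.0 ± 1.69 TPM (SD, n = 6 each), with a log2 fold change of -1.34 (SE 0.07, adjusted p = 4.25e-13, limma), or -0.71 after scaling (adjusted p = 7.56e-09, limma). The neighbours P2ry2 and P2ry6 thus moved in opposite directions, whereas the neighbours P2rx7 and P2rx4 both fell in the TPM as deposited.

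P2ry14, a receptor for UDP-glucose and related nucleotide sugars, was 9.10, 10.6, 12.1, 6.71, 9.24 and 7.56 TPM in F/F PBS. With Tat it was 67.7, 63.3, 64.4, 71.1, 76.6 and 65.9 TPM. The lowest Tat library was far above the highest PBS library, and the mean was 7.39-fold higher, at 68.2 ± 4.96 against 9.23 ± 1.98 TPM (SD, n = 6 each). The log2 fold change was 2.90 (SE 0.10, adjusted p = 1.57e-15, limma), or 3.52 after scaling (adjusted p = 8.89e-17, limma). P2ry14 took 12.1% ± 2.61 of the summed level of the 3 P2Y members in F/F PBS and 55.9% ± 1.35 in F/F Tat (exact permutation test, two-sided, p = 0.00216, adjusted p = 0.00278), with no overlap, and passed from the lowest to the highest of the 3.

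Both adenosine receptors that couple to cAMP production rose with Tat. Adora2a was 16.3, 17.1, 17.6, 14.5, 16.3 and 16.1 TPM in F/F PBS and 109, 124, 109, 118, 112 and 126 TPM in F/F Tat. No library of one group came near the other, and the mean was 7.13-fold higher, at 116 ± 7.59 against 16.3 ± 1.08 TPM (SD, n = 6 each). On the log2 scale the fold change was 2.83 (SE 0.06, adjusted p = 4.75e-19, limma), or 3.46 after scaling (adjusted p = 3.41e-21, limma).

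Adora2b, the adenosine receptor that needs the higher adenosine concentrations to respond, was 9.89, 9.86, 9.62, 11.3, 10.3 and 10.7 TPM in F/F PBS. With Tat it was 124, 124, 123, 119, 122 and 127 TPM. This was the largest rise of the 10 genes, 12.0-fold from 10.3 ± 0.620 to 123 ± 2.48 TPM (SD, n = 6 each), with a log2 fold change of 3.57 (SE 0.04, adjusted p = 1.04e-23, limma), or 4.20 after scaling (adjusted p = 3.73e-24, limma). Of all tested genes, 98.8% had a lower log2 fold change. Adora2a made up 61.3% ± 2.97 of the summed level of both receptors in F/F PBS, and no PBS library was under 56.2%. With Tat its share was 48.5% ± 1.49, and no library was over 50.1% (exact permutation test, two-sided, p = 0.00216, adjusted p = 0.00278).

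**Figure D2:**
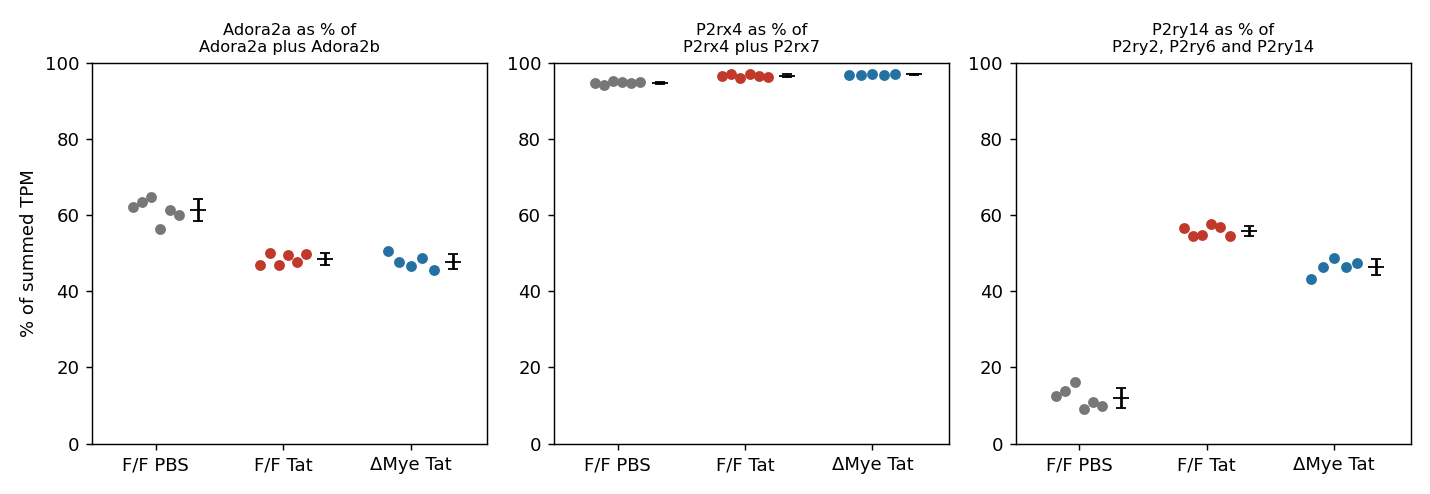
Share of summed TPM (vertical axes, 0 to 100%) of Adora2a within the 2 adenosine receptors, P2rx4 within the 2 ATP-gated receptors and P2ry14 within the 3 P2Y members, by library, with the mean and SD as bars, in F/F PBS (n = 6), F/F Tat (n = 6) and ΔMye Tat (n = 5). The mean P2ry14 share is 12.1% with PBS and 55.9% with Tat in F/F PMs, and 46.4% in ΔMye Tat, with no overlap of the groups.

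The sum of Adora2a and Adora2b was 26.6 ± 0.556 TPM in F/F PBS and 239 ± 8.91 TPM in F/F Tat (SD, n = 6 each). Of the 6 receptors other than P2rx4, both adenosine receptors together made up 19.8% ± 0.837 of the TPM in F/F PBS and 64.0% ± 1.67 in F/F Tat. Over all 7 receptors the summed level ranged from 661 to 742 TPM in F/F PBS and from 709 to 750 TPM in F/F Tat, so the groups overlapped in the total while they did not in its parts.

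Of the enzymes, Entpd1 encodes CD39, the ectoenzyme that starts the breakdown of extracellular ATP and ADP. It was 33.7, 40.2, 34.6, 33.7, 40.2 and 36.6 TPM in F/F PBS and 8.31, 8.73, 9.10, 10.5, 10.5 and 8.54 TPM in F/F Tat. The groups were far apart, and the F/F Tat mean of 9.28 ± 0.971 TPM was 25.4% of the F/F PBS mean of 36.5 ± 3.06 TPM (SD, n = 6 each). The log2 fold change was -1.97 (SE 0.09, adjusted p = 4.13e-14, limma), or -1.34 after scaling (adjusted p = 9.81e-11, limma), where it no longer passed the fold threshold.

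Nt5e, which encodes CD73, the surface enzyme that makes adenosine from AMP, was below the filter in every library and was not tested across genes. It was 0.282, 0.296, 0.356, 0.492, 0.479 and 0.290 TPM in F/F PBS, and 0.266, 0.258, 0.220, 0.131, 0.180 and 0.315 TPM in F/F Tat. The groups overlapped, and 0 of the 17 libraries reached 1 TPM. The exact permutation test of log2(TPM + 0.1) gave a two-sided p of 0.0130, at levels where the number of reads behind a value is unknown.

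Ada, adenosine deaminase, was 2.33, 1.501, 1.57, 2.05, 1.504 and 1.86 TPM in F/F PBS. It was 0.408, 0.757, 0.396, 0.342, 0.387 and 0.628 TPM in F/F Tat. Since it passed the filter through the 6 F/F PBS libraries alone, its call of lower (log2 fold change -1.72, SE 0.19, adjusted p = 4.55e-08, limma, or -1.16 after scaling) adds nothing to the count of members that fell. Without Ada, 3 of 8 tested members were called higher and 1 lower, beside 5.21% and 19.4% of all tested genes. By adjusted p alone 4 of these 8 rose and 4 fell (17% and 67.6% of all tested genes), or 4 and 3 after scaling (37.1% and 38.1%). With no overlap, 4 were higher (15.3%) and 4 lower (62.4%). Marker sums of other cells also differed between F/F PBS and F/F Tat, at 4.87 to 7.11 against 2.59 to 4.24 TPM for mesothelial cells. The sum of the platelet list, 451 to 481 against 359 to 395 TPM, was nearly all Pf4. Its other genes, Ppbp, Itga2b, Gp9 and Gp1ba, had means of at most 0.425 TPM in any group. The sums of T, B, NK and mast cells, eosinophils and neutrophils overlapped. The part of these marker sums in the results with Tat was not tested.

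**Figure D3:**
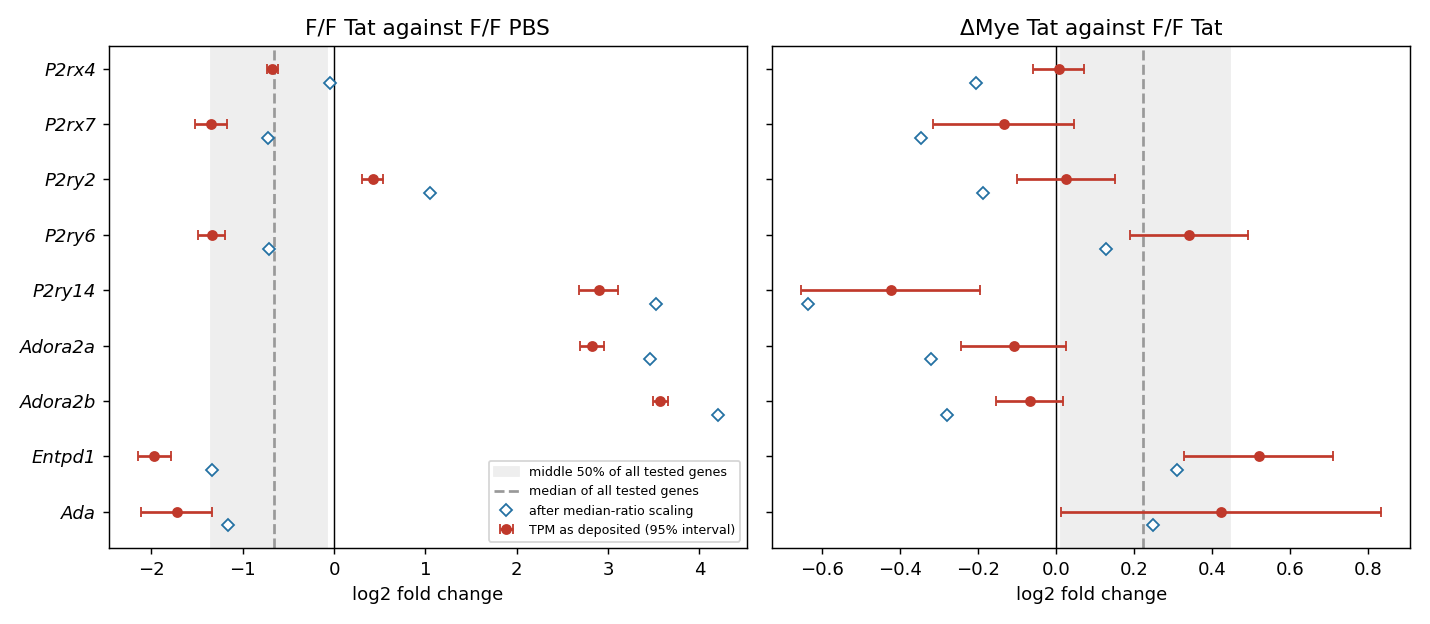
Log2 fold changes (horizontal axes) of the 9 tested members in both comparisons (F/F Tat against F/F PBS, left, and ΔMye Tat against F/F Tat, right), from the TPM as deposited (red, with the 95% interval) and after median-ratio scaling (blue diamonds), with the median (dashed) and the middle 50% (grey) of all tested genes. P2ry14, Adora2a and Adora2b stand at 2.83 to 3.57 with Tat and below 0 in ΔMye Tat against F/F Tat on both scales, while P2rx4 and P2ry2 change sign with the scaling in the second comparison.

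The order of the mean levels changed with Tat. In F/F PBS it ran from P2rx4 to P2ry6, Entpd1, P2rx7, P2ry2, Adora2a, Adora2b, P2ry14, Ada and Nt5e. The libraries of P2ry6 and Entpd1, of Entpd1 and P2rx7, of P2rx7 and P2ry2, and of Adora2b and P2ry14 overlapped in range, and the other neighbours in the order did not. In F/F Tat it ran from P2rx4 to Adora2b, Adora2a, P2ry14, P2ry2, P2ry6, P2rx7, Entpd1, Ada and Nt5e, with overlap between Adora2b and Adora2a, between P2ry6 and P2rx7 and between P2rx7 and Entpd1. The ΔMye Tat order was that of F/F Tat except that Entpd1 stood above P2rx7, and in that group the pairs Adora2b and Adora2a, and Entpd1 and P2rx7, overlapped.

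Between ΔMye Tat and F/F Tat the log2 fold changes of the tested members ran from -0.42 for P2ry14 to 0.52 for Entpd1. No member was called in either direction in ΔMye Tat against F/F Tat, beside 0.44% of all tested genes called higher and 0.316% lower (0.258% and 0.603% after scaling, where again 0 members were called). By adjusted p alone, P2ry6 and Entpd1 were higher and P2ry14 was lower in ΔMye Tat, beside 38.8% of all tested genes higher and 8.87% lower, and 6 members did not pass. After median-ratio scaling 0 were higher (16.4% of all tested genes), 6 were lower (18.8%), namely P2rx4, P2rx7, P2ry2, P2ry14, Adora2a and Adora2b, and 3 did not pass. The groups did not overlap for 1 member that was higher, Entpd1 (28.6% of all tested genes), and 1 that was lower, P2ry14 (8.01%). P2ry14 was the member that passed the adjusted p as lower in ΔMye Tat on both scales.

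P2ry14 was 47.9, 51.0, 55.4, 51.3 and 48.3 TPM in ΔMye Tat, with a mean of 50.8 ± 3.02 TPM (SD, n = 5) that was 74.5% of the F/F Tat mean. All 5 libraries lay between the F/F PBS and the F/F Tat libraries. The log2 fold change against F/F Tat was -0.42 (95% interval -0.65 to -0.19, adjusted p = 0.00268, limma), with a scaled value of -0.64 (adjusted p = 8.59e-05, limma). The adjusted p was 0.0102 in limma with robust eBayes and array weights, just over the threshold. In the exact Wilcoxon test the adjusted p was 0.0118, the lowest that any gene could reach in this comparison. No gene could therefore pass the threshold in that test. Its share of the 3 P2Y members was 46.4% ± 2.09 (n = 5), a difference of -9.42 percentage points from F/F Tat, with no overlap (exact permutation test, two-sided, p = 0.00216, adjusted p = 0.00278).

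Entpd1 was 11.7, 11.2, 15.7, 13.4 and 14.9 TPM in ΔMye Tat, all 5 above the F/F Tat libraries and all 5 under the F/F PBS libraries. The mean of 13.4 ± 1.95 TPM (SD, n = 5) was 1.44-fold that of F/F Tat, a log2 fold change of 0.52 (95% interval 0.33 to 0.71, adjusted p = 8.28e-05, limma). After scaling it was 0.31 (adjusted p = 0.0149, limma), past no threshold used here. P2ry6 was 19.8, 17.2, 18.1, 21.04 and 18.9 TPM, and its lowest library overlapped with F/F Tat. Its log2 fold change was 0.34 (adjusted p = 5.11e-04, limma), with a scaled value of 0.13 (adjusted p = 0.139, limma).

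Adora2a was 119.9, 110.1, 103, 115 and 92.4 TPM in ΔMye Tat and Adora2b was 117, 121, 118, 121 and 110.3 TPM, so both overlapped with F/F Tat. The log2 fold change was -0.11 for Adora2a (95% interval -0.24 to 0.03, adjusted p = 0.149, limma) and -0.07 for Adora2b (-0.15 to 0.02, adjusted p = 0.159, limma). After median-ratio scaling the values were -0.32 (adjusted p = 1.18e-04, limma) and -0.28 (adjusted p = 2.85e-05, limma), past the threshold for both. The share of Adora2a in the sum of both was 47.8% ± 1.88 (n = 5), which overlapped with F/F Tat (exact permutation test, two-sided, p = 0.489).

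P2rx4 was 369, 338, 358, 355 and 356 TPM in ΔMye Tat, overlapping with F/F Tat, and its log2 fold change was 0.01 (95% interval -0.06 to 0.07, adjusted p = 0.867, limma), but -0.21 after scaling (adjusted p = 9.84e-05, limma). P2rx7 was 12.0, 11.2, 10.7, 11.5 and 10.3 TPM, with a log2 fold change of -0.13 (adjusted p = 0.184, limma) and a scaled value of -0.35 (adjusted p = 0.00111, limma). P2ry2 was 43.1, 41.7, 39.97, 38.5 and 34.5 TPM, with a log2 fold change of 0.03 (adjusted p = 0.721, limma) and a scaled value of -0.19 (adjusted p = 0.00317, limma). For these 3 receptors, all of which overlapped with F/F Tat, whether the adjusted p passed the threshold depended on the scaling.

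Ada was 0.560, 0.774, 0.821, 0.589 and 0.605 TPM in ΔMye Tat (log2 fold change 0.42, adjusted p = 0.0694, limma, or 0.25 scaled, adjusted p = 0.325, limma), and Nt5e was 0.132, 0.231, 0.299, 0.0756 and 0.366 TPM (exact permutation test, two-sided, p = 0.723). Both overlapped with F/F Tat. Against F/F PBS, the same ΔMye Tat libraries had Adora2b, Adora2a and P2ry14 called higher (4.38% of all tested genes) with log2 fold changes of 3.50, 2.72 and 2.47, and 0 members called lower (11.1%). By adjusted p alone 4 members were higher (17.5%) and 5 lower (58.8%) in that comparison, and the same numbers of members did not overlap between the groups, 4 being higher (14.8%) and 5 lower (52.8%). Median-ratio scaling left 3 called higher (6.41%) and 0 lower (6.27%), and 4 higher (34%) and 5 lower (33.7%) by adjusted p alone. The 5 lower members include Ada, which passed the filter through F/F PBS alone. Without Ada, 4 of 8 tested members were lower by adjusted p on either scale, and 4 were lower with no overlap. These comparisons share the F/F PBS or the F/F Tat libraries with those above.

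Markers of other cell types also differed between ΔMye Tat and F/F Tat. The summed T cell markers (7 of 7 present) ranged from 5.66 to 7.57 TPM in F/F Tat, below the 11.1 to 13.3 TPM of ΔMye Tat. The summed neutrophil markers were higher in ΔMye Tat as well (86.6 to 102.8 TPM, F/F Tat 64.1 to 76.4 TPM), but nearly all of the sum was S100a8. S100a9 (0.716 against 0.842 TPM) and Retnlg (0.298 against 0.671 TPM) had lower means in ΔMye Tat. Ly6g (0.351 against 0.274 TPM), Cxcr2 (0.367 against 0.260 TPM) and Mpo (0.0172 against 0.0143 TPM) had higher means. The granule gene Elane was listed at 0 in every library. In the other direction, the summed mast cell markers were 24.9 to 31.6 TPM in ΔMye Tat against 32.3 to 44.0 TPM in F/F Tat, and the summed mesothelial markers 1.85 to 2.40 against 2.59 to 4.24 TPM. The summed platelet markers, nearly all Pf4, were 142 to 155 against 359 to 395 TPM. The B, NK and eosinophil sums overlapped. The part of these markers in the differences of Entpd1, P2ry6 and P2ry14 was not tested.

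Other genes of the system were taken from lists of receptors, enzymes, transporters and signalling genes, 92 without the 10 members, of which 59 were tested. With Tat, 8 were called higher and 20 lower, beside 5.21% and 19.4% of all tested genes, and 13 rose and 42 fell by adjusted p alone, beside 17% and 67.6%. After median-ratio scaling 9 were called higher and 15 lower (8.51% and 9.76% of all tested genes), and 20 rose and 33 fell by adjusted p alone (37.1% and 38.1%). Of the 59 genes, 10 passed the filter through the F/F PBS libraries alone, namely P2rx1, P2ry1, P2ry13, Slc17a9, Slc29a2, Adcy9, Prkar1b, Pde3b, Pde4a and Pde8b, and Nt5c1a passed it through the Tat libraries alone, so that the filter favoured a difference with Tat for them. Without these genes 48 were left, of which 7 were called higher and 13 lower, and 12 rose and 32 fell by adjusted p alone (19 and 24 after scaling), whereas the shares over all tested genes include genes that passed in the same way. In ΔMye Tat against F/F Tat, 0 of the 59 were called, beside 0.44% of all tested genes called higher and 0.316% lower. By adjusted p alone 20 were higher and 8 lower, beside 38.8% and 8.87% of all tested genes. After scaling 12 were higher and 13 lower, beside 16.4% and 18.8%. For the genes named below, each direction given as a rise or fall passed the adjusted p on both scales unless stated.

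**Figure D4:**
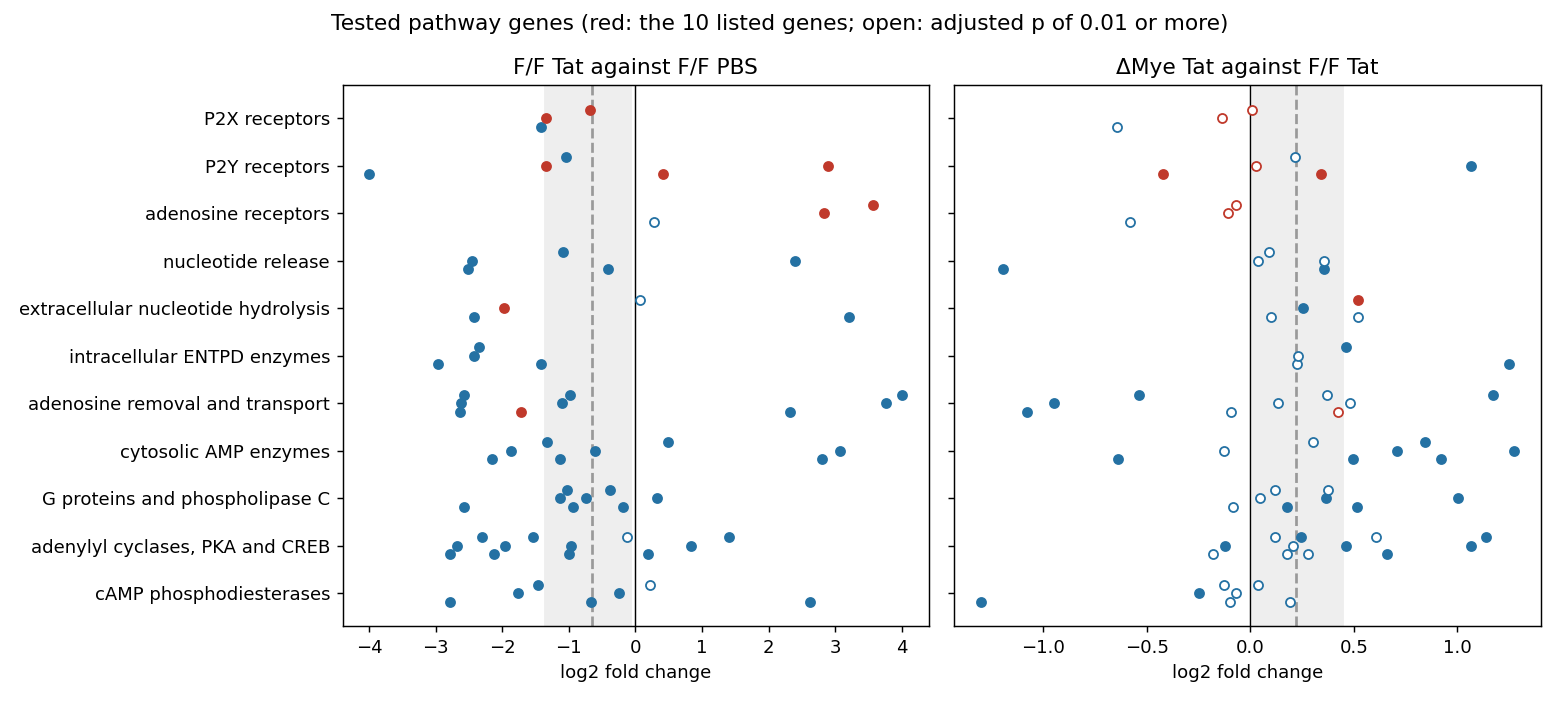
Log2 fold changes (horizontal axes) of the tested genes of 11 purinergic and adenosine gene lists in both comparisons (F/F Tat against F/F PBS, left, and ΔMye Tat against F/F Tat, right), from the TPM as deposited, with members in red and open circles for an adjusted p of 0.01 or more. The dashed line and grey band are the median and middle 50% of all tested genes, and most lists hold genes far to both sides of the median with Tat.

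Among the other receptors, P2ry1, a receptor for ADP, had the lowest log2 fold change with Tat, and passed the filter through F/F PBS alone. Its mean was 7.92 ± 0.978 TPM in F/F PBS and 0.423 ± 0.166 TPM in F/F Tat (log2 fold change -3.99, -3.42 scaled), and it was 0.966 ± 0.239 TPM in ΔMye Tat (log2 fold change against F/F Tat 1.06, adjusted p = 2.27e-04, limma, 0.90 scaled). An antisense gene overlaps 23.1% of its exon bases, and whether strand was used in counting is not given in the sources used here. P2rx1 was 1.86 TPM in F/F PBS and 0.618 TPM in F/F Tat. Of the 4 adenosine receptors, Adora3 was between 0.744 and 1.18 TPM by group mean and did not pass the test with Tat (log2 fold change 0.27, adjusted p = 0.296, limma), though it passed once scaled (0.84, adjusted p = 0.00353, limma). Adora1 was below the filter.

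Of the genes through which cells release nucleotides, 5 were tested. Slc17a9 passed the filter through F/F PBS alone, and of the other 4 genes 1 rose and 3 fell with Tat by adjusted p, beside 17% and 67.6% of all tested genes, or 1 and 2 after scaling, beside 37.1% and 38.1%. Gja1, the gap junction protein connexin 43, rose from 1.75 ± 0.539 to 9.40 ± 0.775 TPM (log2 fold change 2.39, adjusted p = 1.21e-12, limma, 3.00 scaled) and was 4.04 ± 0.256 TPM in ΔMye Tat, lower than F/F Tat in every library (log2 fold change -1.20, adjusted p = 5.75e-07, limma, -1.41 scaled). Panx1, the pannexin channel for ATP release, fell from 9.17 ± 2.33 to 1.75 ± 0.974 TPM with Tat (log2 fold change -2.51, adjusted p = 4.40e-05, limma, -1.90 scaled). Vdac1, a mitochondrial outer membrane channel, was 1.28-fold higher in ΔMye Tat than in F/F Tat (adjusted p = 6.15e-07, limma), but missed the threshold after scaling (adjusted p = 0.0183, limma).

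Beside Entpd1, the surface and extracellular enzymes included Cd38, which consumes NAD and yields products that feed adenosine formation. Cd38 rose from 17.7 ± 1.65 to 164.9 ± 8.83 TPM with Tat (log2 fold change 3.21, adjusted p = 4.99e-21, limma, 3.84 scaled) and was 197 ± 3.77 TPM in ΔMye Tat. Enpp1, which cuts ATP to AMP, fell from 5.15 ± 0.829 to 0.961 ± 0.491 TPM (log2 fold change -2.42, adjusted p = 8.56e-07, limma, -1.82 scaled). The ENTPD enzymes of intracellular compartments fell in 4 of 4 tested genes on both scales, beside 67.6% of all tested genes as deposited and 38.1% scaled, with log2 fold changes from -1.42 for Entpd7 (-0.81 scaled) to -2.96 for Entpd6 (-2.36 scaled), whose mean went from 6.48 to 0.754 TPM with Tat and was 1.94 TPM in ΔMye Tat. All of the 31-base sequences of Entpd4 also occur in other genes, with Entpd4b sharing the most, so the Entpd4 value may hold reads of other genes.

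Of the genes for removal and transport of adenosine and its products, Slc28a2, a concentrative nucleoside transporter, rose from 36.1 ± 2.11 to 491 ± 24.9 TPM with Tat (log2 fold change 3.76, adjusted p = 1.27e-23, limma, 4.39 scaled) and was 232 ± 9.60 TPM in ΔMye Tat (log2 fold change -1.08, adjusted p = 2.86e-13, limma, -1.29 scaled). It shares 46.3% of its 31-base sequences, mostly with Gm14085. Slc29a1, an equilibrative nucleoside transporter, went the other way, from 60.6 ± 4.09 to 9.81 ± 1.03 TPM (log2 fold change -2.62, adjusted p = 1.19e-17, limma, -1.99 scaled), and was 22.2 ± 1.90 TPM in ΔMye Tat (log2 fold change 1.17, adjusted p = 1.23e-10, limma, 0.96 scaled). Slc29a2, which passed the filter through F/F PBS alone, had means of 1.26 TPM with PBS and 0.127 TPM with Tat. Pnp2, a purine nucleoside phosphorylase, rose from 1.76 ± 0.329 to 29.5 ± 2.86 TPM and was 15.2 ± 1.42 TPM in ΔMye Tat, and 39.0% of its 31-base sequences are shared, mostly with Pnp, so the split between both genes is uncertain.

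Of 8 tested cytosolic enzymes that make or use AMP, Nt5c1a passed the filter through the Tat libraries alone, and of the other 7 genes 2 rose and 5 fell with Tat by adjusted p, beside 17% and 67.6% of all tested genes, or 2 and 4 after scaling, beside 37.1% and 38.1%. Nt5c3, a pyrimidine nucleotidase, rose from 35.7 ± 0.955 to 249.0 ± 6.98 TPM (log2 fold change 2.80, adjusted p = 1.85e-23, limma, 3.43 scaled). Nt5c1a, which makes adenosine from AMP in the cytosol, had means of 0.199 TPM with PBS and 2.24 TPM with Tat. Nt5c3 was 160.1 ± 7.49 TPM in ΔMye Tat (log2 fold change -0.64, adjusted p = 1.08e-11, limma, -0.85 scaled), whereas Nt5c1a was 4.33 TPM (log2 fold change 0.92, adjusted p = 0.00778, limma, but 0.72 scaled with an adjusted p of 0.0249). Nt5c2, which acts on IMP and GMP, fell from 19.5 ± 5.15 to 4.40 ± 1.77 TPM with Tat, and Nt5c, a deoxynucleotidase, fell from 74.2 to 20.2 TPM and had a mean of 36.7 TPM in ΔMye Tat.

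Downstream of the receptors, 8 genes of G proteins and phospholipase C were tested, of which 1 rose and 7 fell with Tat by adjusted p, beside 17% and 67.6% of all tested genes. After scaling 3 rose, 3 fell and 2 did neither, beside 37.1% and 38.1%. Plcb2, a phospholipase C, fell most, from 8.54 ± 0.632 to 1.36 ± 0.234 TPM (log2 fold change -2.58, -1.97 scaled), Plcb3 rose from 11.6 to 14.4 TPM (log2 fold change 0.32, adjusted p = 9.91e-04, limma, 0.95 scaled), and Gnas, which encodes the stimulatory G protein α subunit, was lower with Tat in the TPM as deposited (log2 fold change -0.38) and higher after scaling (0.25, adjusted p = 2.02e-08, limma), with 19.9% of its 31-base sequences shared. Of 12 adenylyl cyclase, protein kinase A and CREB genes, Adcy9 and Prkar1b passed the filter through F/F PBS alone. Of the other 10 genes 3 rose and 6 fell, and 4 rose and 6 fell after scaling, beside the same shares of all tested genes as above. Crem, a cAMP-responsive transcription factor, rose from 10.9 ± 1.49 to 28.9 ± 2.43 TPM (log2 fold change 1.40, adjusted p = 5.79e-12, limma, 2.03 scaled), and Prkar1b, a regulatory subunit of protein kinase A, had means of 2.24 TPM with PBS and 0.255 TPM with Tat. In ΔMye Tat against F/F Tat the regulatory subunit Prkar2a was highest of these (log2 fold change 1.14, adjusted p = 6.21e-08, limma, 0.94 scaled) and Prkar1a lowest (-0.12, adjusted p = 0.00206, limma, -0.33 scaled).

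Of 7 tested phosphodiesterases that break down cAMP, Pde3b, Pde4a and Pde8b passed the filter through F/F PBS alone. Of the other 4 genes 1 rose and 2 fell with Tat by adjusted p, beside 17% and 67.6% of all tested genes, whereas 3 rose and 0 fell after scaling, beside 37.1% and 38.1%. Pde4b, a main cAMP phosphodiesterase of leukocytes, rose from 11.7 ± 0.605 to 72.5 ± 2.64 TPM (log2 fold change 2.63, adjusted p = 2.59e-20, limma, 3.26 scaled) and was 61.2 ± 4.33 TPM in ΔMye Tat (log2 fold change -0.25, adjusted p = 3.21e-04, limma, -0.46 scaled). Pde3b had means of 4.61 TPM with PBS and 0.589 TPM with Tat. Pde7b had a mean of 6.48 TPM with PBS and 7.65 TPM with Tat in F/F PMs (log2 fold change 0.23, adjusted p = 0.0475, limma, or 0.85 scaled, adjusted p = 2.14e-07, limma), and of 3.07 TPM in ΔMye Tat, where it was lower than in F/F Tat (log2 fold change -1.30, adjusted p = 8.04e-09, limma, -1.51 scaled).

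The tested genes whose pattern over the 17 libraries was most like that of each member were found by Pearson's r of log2(TPM + 0.1). The libraries fall into 3 groups, and most tested genes differed between F/F PBS and each Tat group. These r are a description of libraries that share those groups. Ccl5 (r = 0.999) and Il1b (r = 0.999) were most like Adora2b, Cfb (r = 0.998) and Slc2a6 (r = 0.998) most like Adora2a, and Hbegf (r = 0.994) and Trim30c (r = 0.994) most like P2ry14. For the receptors that fell or rose less, these were Dio2 (r = 0.994) and Ptgir (r = 0.993) for P2rx4, Saraf (r = 0.988) and Iqgap2 (r = 0.987) for P2rx7, Rassf5 (r = 0.993) and Palm (r = 0.990) for P2ry6, and Akap13 (r = 0.969) and Aff1 (r = 0.966) for P2ry2. For the enzymes they were Smpdl3a (r = 0.993) and Hsd17b10 (r = 0.992) for Entpd1 and Phf7 (r = 0.977) and Nmrk1 (r = 0.976) for Ada.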

How the data were processed

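Peritoneal macrophages were measured by RNA-Seq in 17 libraries, grouped by their sample labels. A further allele that the mice of all 3 groups carried is not reported here. The authors ran Salmon against Ensembl transcripts of GRCm38 (mm10 per the labels), and the deposited values are TPM by gene symbol. The Salmon version and any strand setting are not given in the sources used here. The authors' own comparison used edgeR, which needs counts and was not repeated here. TPM keep no depth, so precision rests on the spread between libraries.

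Genes that reached 1 TPM in 5 or more libraries were tested with limma 3.58.1 (R 4.3.3) on log2(TPM + 0.1), with all 3 groups fitted together (14 residual degrees of freedom, eBayes with trend), and the scripts were tested on simulated data. Single values were compared by exact permutation tests. Median-ratio scaling used the rows above 0 in all libraries. Each result was recomputed with quantile normalization or median-ratio scaling, with pseudocounts of 0.5 or 1, without a filter or with one at 5 TPM, in fits of 2 groups, with robust eBayes and array weights, by an exact Wilcoxon test, and without each library in turn.

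The members and gene lists were chosen with earlier results of these data known. Named beside them were the highest and lowest log2 fold change of each list at an adjusted p under 0.01, the 2 genes most like each member, and Ikbkb. Adora1, Adora3, Pnp, the marker genes and the genes that passed the filter through 1 treatment alone were named outside this rule, after their values were seen. Coordinates and 31-base sequences are from GENCODE M21. Other software was matplotlib 3.10.9, scipy 1.17.1, pandas 2.3.3, numpy 2.4.6 and Python 3.11.15.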

Additional observations from a re-analysis of the deposited data

How the results depend on the processing

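Of 2 members called lower with Tat, 1 was called with a pseudocount of 0.5, a pseudocount of 1 and a filter at 5 TPM, and 0 with median-ratio scaling and quantile normalization. These 2 include Ada, which passed the filter through F/F PBS alone. By adjusted p alone, the 2 members higher in ΔMye Tat than in F/F Tat became 0 with median-ratio scaling and quantile normalization. The 1 member lower there became 6 with median-ratio scaling, 2 with quantile normalization, and 0 with robust eBayes and array weights. In the exact Wilcoxon test both counts were 0. No gene could reach an adjusted p under 0.0118 with that test in this comparison, so it cannot decide these counts. P2rx4 in ΔMye Tat against F/F Tat changed sign to -0.21 with median-ratio scaling, -0.00374 with quantile normalization, -0.00564 with robust eBayes and array weights, and with single libraries left out ranged from -0.0075 to 0.024. P2ry2 changed sign there to -0.19 with median-ratio scaling and -0.10 with quantile normalization, and ranged from -0.0064 to 0.074 with single libraries left out. With quantile normalization, Ada missed the adjusted p with Tat (0.0240). The 3 members called higher with Tat were called under every alternative run, and no count of members moved when a library was left out. For the other listed genes, where these alternatives were chosen after seeing the data, the 13 that rose with Tat by adjusted p became 20 with median-ratio scaling, and the 20 called lower became 13 without the genes that passed the filter through F/F PBS alone or the Tat libraries alone. Depth is unknown for every value, which limits what can be said of Nt5e and Ada. No paired analysis was possible because the groups share no replicate numbers. Causes of these changes were not tested.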
